A study of Mus musculus with 9 samples.

Results

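The 6 blood arrays of a 9-array series were taken as one experiment: blood of 3 mice drawn before (day 0) and 10 days after (day 10) they received tumour cells, with 1 array for each mouse and day. The animals, numbered 832, 833 and 834, were female athymic mice of the strain written "Balb/c atymic" in the labels. They lack a thymus and therefore most T cells, on both days, and their age was not given. After the first draw Hepa1-6 cells, a mouse hepatoma line, were injected under the skin. The other 3 arrays of the series carried a cell fraction of the tumours. Each array held RNA from one of these blood samples in the Cy5 channel. The Cy3 channel always carried the same kind of reference, total RNA from the blood of female C57Bl/6 mice given no treatment, and no array had the dyes exchanged. Values below are log2 ratios of Cy5 over Cy3, and a difference is day 10 minus day 0 within a mouse, on the log2 scale. No uninoculated mice bled at both times were analysed here, so the tumour cells, the earlier blood draw and the elapsed time cannot be told apart.

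Whole blood RNA mixes the transcripts of nucleated leukocytes with those of platelets and of reticulocytes, the youngest circulating red cells. Reticulocytes have lost their nucleus but still hold messenger RNA for globin, for membrane proteins and for the machinery that clears their mitochondria and ribosomes, so a blood profile shifts when their share shifts. Blood leukocytes of an athymic mouse include B cells, NK cells, neutrophils and monocytes. In such a bulk sample, fewer cells of a type and less of its RNA per cell cannot be told apart.

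Of the probes on the array, 30.6% ± 6.35 (SD, n = 3) were well above background in Cy5 on the day 0 arrays and 17.1% ± 3.31 on the day 10 arrays, with 23.8% to 36.3% at day 0 and 13.7% to 20.3% at day 10. In the Cy3 reference the share lay between 44.8% and 49.9% on all 6 arrays. At the level of genes, 7738 had a probe well above background on all 3 day 0 arrays and 4549 on all 3 day 10 arrays. Arrays of one day correlated across the tested genes at 0.82 to 0.86 (day 0) and 0.84 to 0.93 (day 10), and arrays of different days at 0.28 to 0.78. The day 0 arrays of mice 832 and 833 shared slide 2, while the day 0 array of mouse 834 and all 3 day 10 arrays shared slide 3. Slide and scan coincide, and only the difference of mouse 834 lies within a slide. That mouse's values are given beside the others for this reason.

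Blood changed broadly between the draws. Genes bright in Cy5 on all 6 blood arrays were tested, 4379 in all, with limma and the mouse as a block. After Benjamini-Hochberg adjustment at 0.05, 1594 of them (36.4%) were called, 1006 higher (23%) and 588 lower (13.4%) at day 10. The lowest and highest values of the 2 days did not overlap for 2207 genes (50.4%), and 1581 of the called genes moved the same way in all 3 mice. The median difference of all tested genes was 0.16, and 0.09, 0.21 and 0.14 in mice 832, 833 and 834, so the values of gene groups are read against it. The count fell to 788 when the pairing by mouse was ignored, to 524 without mouse 833 and to 1061 without mouse 834. With slide and mouse both as blocks, where the difference rests on mouse 834 alone, 581 were called, and with the slide as the only block none was (783 at an unadjusted p below 0.05; limma throughout). Each sample is a separate draw from one of 3 animals, and the p-values rest on the spread of the differences over these animals. That spread also holds array noise and the change of slide in mice 832 and 833. For each gene limma draws it toward the spread of all tested genes (7.75 prior against 2 residual degrees of freedom).

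How many genes were called, and in which direction, depended on how the arrays were scaled. The fit rests on loess within each array, which lets the correction vary with brightness. When arrays were instead centred on the median of the tested genes, 1648 genes were called, 54.4% of them higher, against 63.1% with loess. With the deposited log ratio 2130 were called and 71.2% were higher, and with the Cy5 channel alone 707 were called and 50.1% were higher. Centring on the median of all spots, most of which are dark, moved the median of all tested genes to -0.53 and left 3 of 1896 called genes higher, so nearly all called genes are lower under it. Below, values under that scaling are given for some list medians and for some genes whose sign differs from that under loess. In 4 scalings (loess, centring on the tested genes, the deposited log ratio and Cy5 alone), 194 genes were called higher and 294 lower each time. These are called genes of 4 scalings below.

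**Figure D1:**
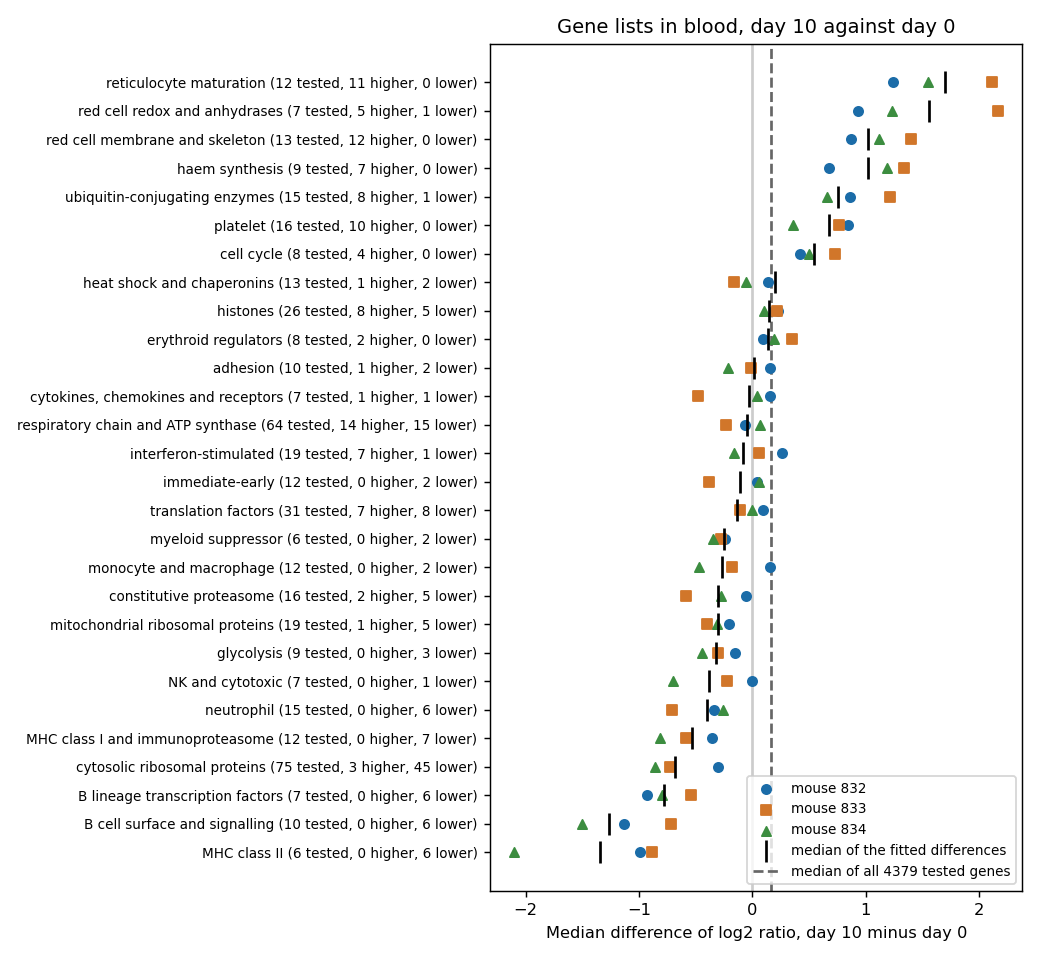
Median difference of the log2 ratio (day 10 minus day 0, horizontal axis) of each gene list with at least 6 tested genes, one row a list. Points stand for the 3 mice, black bars for the median of the fitted differences and the dashed line for the median of all tested genes, 0.16. The reticulocyte, redox, membrane and haem lists lie to its right in each mouse after loess (with centring on the tested genes the globins, not drawn, had a median of 0.03), and B cell, MHC class II and ribosomal protein lists to its left.

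Red cell genes were higher at day 10. Across 7 lists (globins, haem synthesis, membrane and skeleton, erythroid regulators, reticulocyte maturation, iron handling, and redox enzymes with anhydrases) 56 genes were tested, of which 42 were higher, 1 was lower and 13 were not called, against a background of 23% higher. In 4 scalings 15 of the 56 were called higher, 6 of them membrane and 3 each haem, reticulocyte and redox genes, and no globin, regulator or iron gene was. Their median difference was 1.01, and 0.84, 1.29 and 1.13 in mice 832, 833 and 834.

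Of 13 membrane and skeleton genes 12 were higher, with a median of 1.02 under loess, 0.63 with centring on the tested genes, 1.49 with the deposited ratio, 0.77 with Cy5 alone and -0.02 with centring on all spots. Slc4a1, the anion exchanger of the red cell membrane, had log2 ratios of -1.46, -2.01 and -1.12 at day 0 in mice 832, 833 and 834, and of 0.38, 0.90 and 1.31 at day 10. All day 10 values lay above all day 0 values, and the difference was 2.39 ± 0.21 (SE), a 5.25-fold rise (limma adjusted p = 0.0001565). Ank1, the ankyrin that ties the exchanger to the spectrin skeleton, rose by 1.99 ± 0.19 (1.25 at its second probe), and Epb42, a further link between exchanger and skeleton, by 1.54 ± 0.16. Slc4a1, Ank1 and Epb42 were called in 4 scalings, as were the blood group genes Kel (1.45) and Rhd (1.02). Sptb, which encodes a spectrin chain, was the 1 member not called, at 0.36 ± 0.17.

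Promoter sequence was at hand for part of the red cell genes that rose. RefSeq promoters (build GRCm38.p6, 250 bases before the start of the gene) matched 25 of the 42 higher genes. The letters AGATAA, the core that GATA-family factors bind, were found on either strand in 7 of the 25 (28%), against 11.4% of 27025 genes. A match is a description of the sequence, not a site shown to be used. Members of these lists that were not higher were not searched. The share therefore cannot set the genes that rose apart from the rest of their lists. The following windows, with the match in capitals, belong to genes that were higher in 4 scalings. They are written along the strand of the gene, so that TTATCT marks a match on the opposite strand, and no match of another searched motif overlaps them.
Kel, minus strand, chr6:41704346-41704411: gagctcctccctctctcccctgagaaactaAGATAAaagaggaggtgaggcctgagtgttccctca
Rhd, plus strand, chr4:134864463-134864528: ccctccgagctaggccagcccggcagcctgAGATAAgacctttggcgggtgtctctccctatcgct
Trim10, plus strand, chr17:36869381-36869446: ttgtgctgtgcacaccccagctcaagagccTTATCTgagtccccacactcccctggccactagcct
Epb42, minus strand, chr2:121037068-121037127: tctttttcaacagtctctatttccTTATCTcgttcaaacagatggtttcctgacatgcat

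Genes of reticulocyte maturation had the highest list median, 1.70, with 11 of 12 higher; it was 0.74 with centring on the tested genes, 0.98 with the deposited ratio, 0.72 with Cy5 alone and 0.09 with centring on all spots. Xpo7, a nuclear export receptor, went from -1.92, -2.27 and -1.63 to -0.14, 0.46 and 1.03, a difference of 2.39 ± 0.21 with no overlap between days. Bnip3l, the receptor that marks mitochondria for removal, had ratios of 0.53, -0.48 and 1.19 at day 0 and 2.04, 1.59 and 3.07 at day 10. The 2 days were parted here too, with a difference of 1.82 ± 0.17 (limma adjusted p = 0.0001846). The difference was 0.61 with the deposited ratio and with Cy5 alone. Ube2o, the ubiquitin enzyme that tags ribosomal and other surplus proteins in maturing red cells, rose by 1.97 ± 0.19 and the ubiquitin ligase gene Rnf10 by 1.77 ± 0.19. Ulk1, an autophagy kinase, was not called (0.14 ± 0.16, and -0.07 at its second probe). Xpo7, Trim10 and Ube2h were the members called in 4 scalings.

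Among the ubiquitin-conjugating enzymes as a family, which partly overlaps that list, 8 of 15 were higher and 1 was lower, with a median of 0.76 under loess, 0.22 with centring on the tested genes, 0.62 with the deposited ratio, 0.34 with Cy5 alone and -0.43 with centring on all spots. Ube2h rose by 1.67 ± 0.19 and Ube2f by 1.61 ± 0.19, with other probes at 0.62 and 1.04. In the constitutive proteasome 2 of 16 subunits were higher (12.5%) and 5 lower (31.25%), against 23% higher and 13.4% lower of all tested genes. Psmd3 was at -1.12 ± 0.18 and Psmd4, the ubiquitin receptor of the cap, at 0.82 ± 0.16. Psmd4 was at -0.31 with centring on all spots.

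Of 9 haem synthesis genes tested 7 were higher, at a list median of 1.02 under loess, 0.30 with centring on the tested genes, 1.05 with the deposited ratio, 0.37 with Cy5 alone and -0.35 with centring on all spots. Tspo2, an erythroid translocator protein, went from -3.45, -3.86 and -3.63 to -1.78, -1.65 and -0.84. The lowest day 10 value lay far above the highest day 0 value, and the difference was 2.22 ± 0.21. Urod, which encodes an enzyme of porphyrin assembly, rose by 1.61 ± 0.16. Tspo2 and Urod were called in 4 scalings. Alas2, the rate-limiting enzyme of haem synthesis in red cells, was 0.93 ± 0.20 higher under loess, but its difference was -0.68 with the deposited ratio and -0.23 both with Cy5 alone and with centring on the tested genes. Slc25a37, the mitochondrial iron importer, had overlapping values, with 0.56, -0.17 and 1.54 at day 0 and 1.96, 1.42 and 2.89 at day 10. Its paired difference was 1.45 ± 0.15, 0.65 at its second probe and -0.07 with the deposited ratio.

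The size of the globin differences depended on loess. Hbb-bt, an adult beta globin gene, had log2 ratios of 2.11, 2.52 and 2.72 at day 0 and 3.55, 3.25 and 4.45 at day 10, a difference of 1.299 ± 0.20 (limma adjusted p = 0.001553). The difference was 0.02 with centring on the tested genes, 0.13 with Cy5 alone and -0.73 with the deposited ratio. Hbb-y, an embryonic beta-like globin gene, was at 0.99 ± 0.15 under loess and -0.01 in Cy5 alone. Hbb-bh1, a further embryonic gene, was at 0.69 ± 0.21, and at 0.90 with the deposited ratio, 0.62 with Cy5 alone and 0.15 with centring on the tested genes. Globin genes of the beta cluster are close copies, and a probe may read more than one of them. Hba-a1, adult alpha globin, was bright on all 6 arrays but not tested, because its spot was flagged on the day 0 array of mouse 832. In mice 833 and 834 it differed by 0.99 and 0.51.

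**Figure D2:**
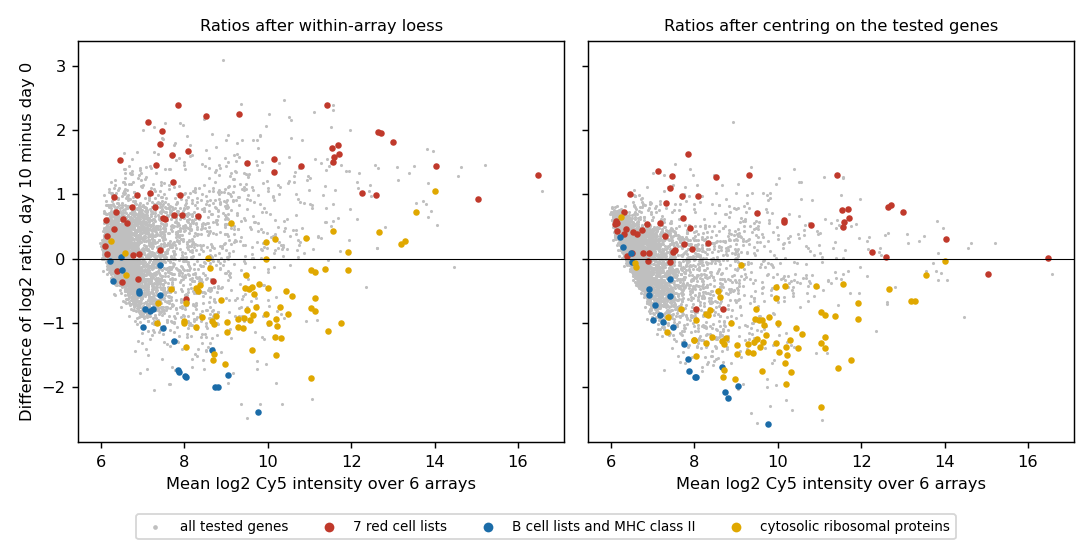
Difference of the log2 ratio (day 10 minus day 0, vertical axis) against mean log2 Cy5 intensity over the 6 blood arrays, one point a gene, after within-array loess (left) and after centring each array on the tested genes (right). Red cell genes of high intensity lie well above 0 on the left and closer to 0 on the right (Hbb-bt at 1.299 and 0.02), while the lowest B cell gene, Cd79b, lies at -2.39 on the left and -2.56 on the right.

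Of 7 redox enzymes and anhydrases 5 were higher, with a list median of 1.56 under loess, 0.57 with centring on the tested genes, 0.86 with the deposited ratio, 0.59 with Cy5 alone and -0.08 with centring on all spots. Cat, catalase, went from -3.40, -4.39 and -2.47 to -1.50, -1.48 and -0.51, a difference of 2.26 ± 0.21 without overlap, and was called in 4 scalings. So were Prdx2, the abundant peroxiredoxin of red cells (1.96 ± 0.17), and Gclm, a subunit of the first enzyme of glutathione synthesis (0.995). Bpgm, which makes the bisphosphoglycerate that lowers oxygen affinity, rose by 1.59 ± 0.20, and Car2, a carbonic anhydrase, by 1.56 ± 0.24. Both were near 0 with centring on all spots (-0.08 and -0.05). Txn1, thioredoxin, was the 1 red cell list member called lower, at -0.63. In iron handling Ftl1, ferritin light chain, rose by 1.51 ± 0.21 (-0.15 with centring on all spots) and Slc48a1, a haem transporter, by 1.35 ± 0.23 (-0.08 with centring on all spots), while the second probe of Slc48a1 gave 0.49. Slc40a1, the iron exporter ferroportin, was at -0.32 ± 0.15 and Slc11a2, an iron importer, at 0.56 ± 0.21, and neither was called.

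Of 8 tested transcription factors and regulators of the red cell lineage 2 were called higher (25%, near the 23% of all tested genes). The list median, 0.14, was near the 0.16 of all tested genes. The 2 were Lmo2 (0.81 ± 0.18) and Nfe2 (0.68 ± 0.16), both of which were below 0 with centring on all spots (-0.21 and -0.42). Klf1 was at 0.07 ± 0.17, Tal1 at 0.08 ± 0.15 and the erythropoietin receptor gene Epor at 0.20 ± 0.15. Zfpm1, a cofactor of GATA factors, was at 0.62 ± 0.22 (limma adjusted p = 0.05052). Gata1 was well above background on 3 day 0 arrays and 2 day 10 arrays and was not tested.

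The 15 largest rises among genes with a symbol held further genes, some of them known from red cell biology. Nt5c3, a nucleotidase that clears pyrimidine nucleotides left from RNA breakdown in red cells, rose by 2.41 ± 0.20, Mpp1, a scaffold of the red cell skeleton, by 2.25 ± 0.21 and Iscu, the scaffold of iron-sulfur cluster assembly, by 2.20 ± 0.19. The list went on with Prxl2a, a peroxiredoxin-like protein (2.46 ± 0.18), the retinaldehyde dehydrogenase Aldh1a1 (2.396 ± 0.25), Specc1 (2.31 ± 0.20), the cell cycle phosphatase Cdc25b (2.28 ± 0.17) and the lysosomal protease cathepsin B, Ctsb (2.16 ± 0.19). Other probes of Specc1 and Cdc25b gave 0.47 and 0.36. All 15 were called in 4 scalings, and none had overlapping days.

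Of 8 cell cycle genes that could be tested 4 were higher (50%, against 23% of all tested genes) and none lower, all 4 called in 4 scalings. The list median was 0.54 under loess and 0.34 with centring on the tested genes, but -0.31 with centring on all spots. Ube2c, the ubiquitin enzyme of the anaphase-promoting complex, went from -2.52, -3.74 and -2.37 to -0.97, -0.91 and -0.25, a difference of 2.17 ± 0.22. Ccna2, cyclin A2, rose by 1.20 ± 0.17 and Ccnb2, cyclin B2, by 0.80 ± 0.18. Mki67, a proliferation marker, had ratios of 0.39, 0.07 and 0.26 at day 0 and 1.07, 1.39 and 1.77 at day 10. Its difference was 1.17 ± 0.19, with 0.26 at its second probe. The replication genes Pcna (-0.30) and Mcm4 (-0.29) were not called.

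Platelet genes were higher in part. Of 16 tested 10 were higher (62.5%, against 23% of all tested genes) and none lower. The list median was 0.67 under loess, 0.18 with centring on the tested genes, 0.63 with the deposited ratio, 0.47 with Cy5 alone and -0.47 with centring on all spots. The medians in mice 832, 833 and 834 were 0.84, 0.76 and 0.36. Gp9, a subunit of the receptor for von Willebrand factor, had ratios of -0.02, -1.03 and -0.02 at day 0 and 1.52, 1.01 and 0.90 at day 10, a difference of 1.502 ± 0.21 with no overlap (limma adjusted p = 0.0009632). Gp9 and Gp1bb (0.72 ± 0.16), a subunit of the same receptor, were called in 4 scalings. Vwf rose by 1.24 ± 0.23 and the platelet chemokine gene Ppbp by 1.22 ± 0.21. In mouse 834, the pair within a slide, these differences were 0.54 and 0.60. Pf4, platelet factor, lacked a day 0 value in mouse 834 and differed by 0.89 and 0.31 in the other two.

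**Figure D3:**
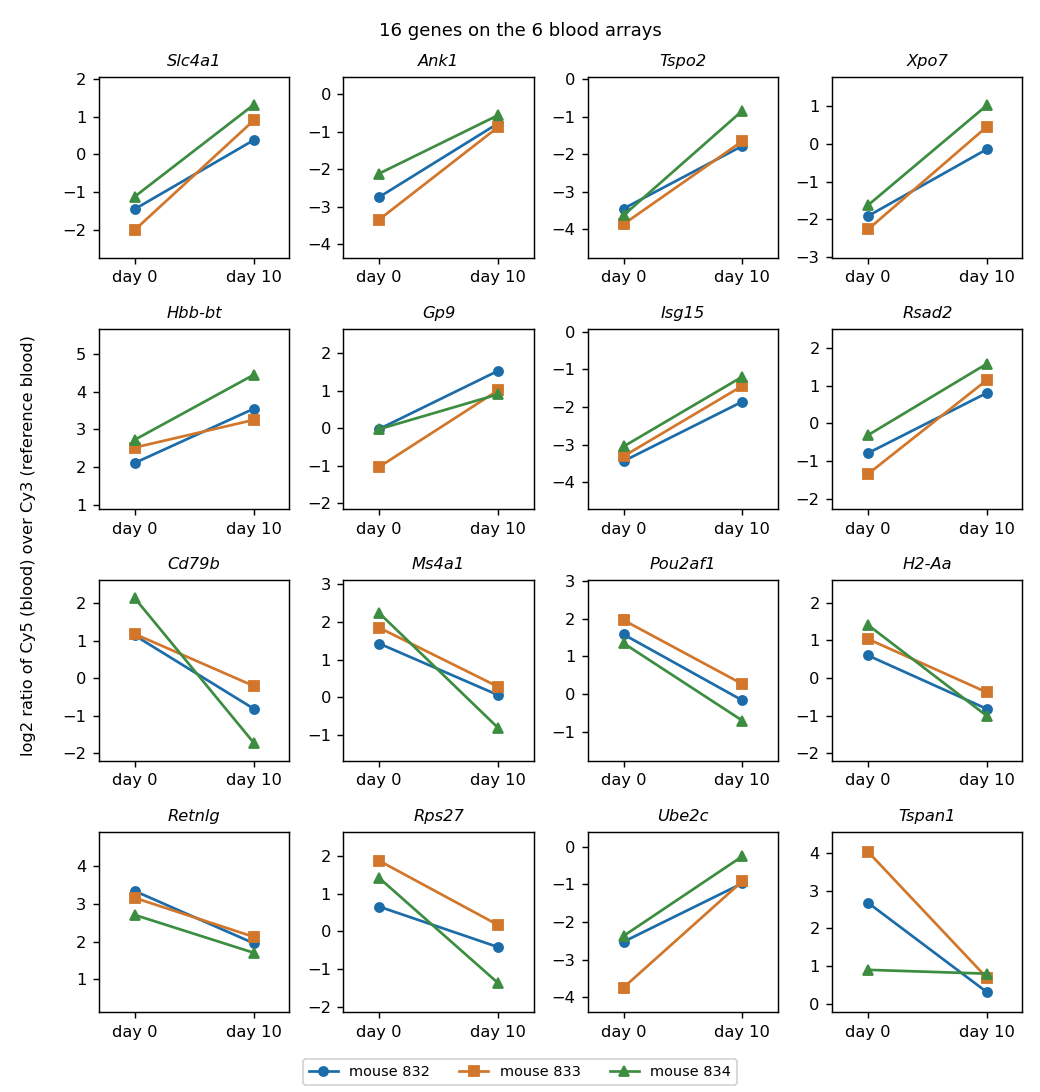
Log2 ratio of Cy5 (blood) over Cy3 (reference blood) on the 6 blood arrays for 16 genes, 1 panel a gene and 1 line a mouse, each panel spanning the same number of log2 units. Slc4a1, Ank1, Tspo2, Xpo7, Ube2c and Rsad2 rise and Cd79b, Ms4a1, Pou2af1 and H2-Aa fall in each mouse, Hbb-bt rises after loess (-0.73 with the deposited ratio), and Tspan1 falls in mice 832 and 833 but is level in mouse 834.

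B cell genes were lower at day 10. Of 17 tested genes of the B cell surface and of the B lineage factors 12 were lower and none higher, against a background of 13.4% lower, and the median was -0.81 (-0.93, -0.54 and -1.05 in mice 832, 833 and 834). The surface list had a median of -1.27 and the factor list of -0.78, and both medians stayed below that of all tested genes in each scaling. Cd79b, a signalling chain of the B cell receptor, went from 1.13, 1.17 and 2.13 to -0.81, -0.21 and -1.71. It crossed from above to below the reference in each mouse, and the difference was -2.39 ± 0.37 (limma adjusted p = 0.001522). Ms4a1, which encodes the surface marker CD20, went from 1.43, 1.85 and 2.24 to 0.06, 0.28 and -0.81, a difference of -1.996 ± 0.28, with -1.48 at its second probe. Ighm, the heavy chain of IgM, had ratios of 1.81, 1.76 and 2.79 at day 0 and of 0.05, 0.81 and -1.04 at day 10 (a difference of -2.18, and -1.27 at its second probe), and Iglv1, a lambda light chain variable gene, differed by -1.93 ± 0.28. The fall of Cd79b, Ms4a1, Ighm and Fcmr, the receptor for IgM (-1.99 ± 0.35), was largest in mouse 834.

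Blnk, an adaptor of B cell receptor signalling, differed by -1.82 ± 0.19 and Vpreb3, expressed in B cell precursors and some mature B cells, by -1.73 ± 0.17. The 6 called surface genes were called in 4 scalings. Cd79a, the partner of Cd79b, was not called at 0.03 ± 0.17, nor were Cd37, Ccr6 and Cr2 (-0.17, -0.10 and -0.04). Among the factors Pou2af1, a coactivator for octamer-binding proteins, went from 1.59, 1.96 and 1.35 to -0.17, 0.27 and -0.71, a difference of -1.84 ± 0.16 (limma adjusted p = 0.0001565). Irf8, which dendritic cells and monocytes also express, fell by 1.08 on the log2 scale, Spib by 1.05 and Bach2 by 0.78. Of 20 surface genes 18 were well above background on all 3 day 0 arrays and 10 on all 3 day 10 arrays, and of 12 factors 12 and 7. Over all genes the counts were 7738 and 4549. Of these 18 and 12 genes, 5.56% and 16.7% were so on no day 10 array, against 16.1% of all such genes. Ebf1, a factor that sets B cell identity, and the receptor gene Fcrl1 were well above background on each day 0 array and on no day 10 array. Their day 0 Cy5 signal was at least 1.38-fold and at least 1.18-fold higher than their day 10 signal, which was itself not well above background.

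The octamer ATGCAAAT, the letters that Oct factors and their coactivator Pou2af1 bind, lay within 250 bases before the start in 2 of 9 lower B cell genes with a RefSeq promoter (22.2%), against 1.81% of 27025 genes. Both matches lie on the strand opposite to the gene and are shown as ATTTGCAT, because these genes were lower in 4 scalings. No other searched motif overlaps them. Members of these lists that were not lower were not searched, so the share cannot set the lower genes apart from the rest of their lists.
Blnk, minus strand, chr19:40994314-40994381: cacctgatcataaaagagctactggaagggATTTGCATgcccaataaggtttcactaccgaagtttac
Vpreb3, plus strand, chr10:75948225-75948292: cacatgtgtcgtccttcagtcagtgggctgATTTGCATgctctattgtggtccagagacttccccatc

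MHC class II genes, which B cells and other antigen-presenting cells express, were lower as well. All 6 tested genes were lower, against 13.4% of all tested genes, with a median of -1.35 (-0.99, -0.88 and -2.10 in the 3 mice). None had overlapping days, while 50.4% of all tested genes had none. H2-Aa, the alpha chain of I-A, went from 0.60, 1.04 and 1.41 to -0.82, -0.38 and -1.003, a difference of -1.75 ± 0.21. H2-Ab1, its beta chain, differed by -1.81 ± 0.27, with -0.50 at its second probe, and H2-DMb1, which helps load peptides, by -1.27 ± 0.19. H2-Ea and H2-DMb2 were well above background on the day 0 arrays only. That is 16.7% of the class II genes well above background on all 3 day 0 arrays, near the 16.1% of all genes. Of 12 genes of MHC class I and the immunoproteasome 7 were lower (58.3%, against 13.4% of all tested genes), with a median of -0.54. Psme2 (-1.04 ± 0.18) and Psmb10 (-1.06 ± 0.19) were among them. The class I light chain gene B2m was not called, at 0.33 ± 0.21.

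Ribosomal protein genes were the list with the most lower genes by count, and also the list with the most genes tested. Of 75 genes of the cytosolic ribosome 45 were lower (60%, against 13.4% of all tested genes), 3 higher and 27 not called. The lower share was 60% in the B cell surface list too, 85.7% in the B lineage factors and 100% in MHC class II. In 4 scalings 44 of the lower ribosomal protein genes were called. The list median was -0.69, and -0.30, -0.73 and -0.86 in mice 832, 833 and 834. It was -1.17 with centring on the tested genes, -1.04 with the deposited ratio and -0.95 with Cy5 alone. Rps27 went from 0.66, 1.88 and 1.42 to -0.42, 0.17 and -1.37, a difference of -1.86 ± 0.27. Rpl13a had ratios of -0.08, 0.63 and 0.00 at day 0 and of -1.39, -1.02 and -1.74 at day 10, so that the days were parted by more than the spread within either (-1.57 ± 0.16, limma adjusted p = 0.0002329). Rps25 differed by -1.64 ± 0.20 and Rpl36 by -1.48 ± 0.17. Rplp0 (0.73, with another probe at 0.05) and Rpl28 (0.56) were among the higher genes, and no higher gene of the list was called in 4 scalings. Ribosomal protein genes have many processed copies in the genome, which a probe may also read.

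Of 31 translation factors tested 8 were lower (25.8%) and 7 higher (22.6%), against 13.4% lower and 23% higher of all tested genes, and in 4 scalings the 8 lower ones held while no higher one did. Eif3l and Eef1g, subunits of an initiation and of an elongation factor, both differed by -1.17 ± 0.17. Eif5 (1.27 ± 0.19) and Eef1d (1.24 ± 0.18) were higher, at -0.14 and -0.15 with centring on all spots. Of 19 mitochondrial ribosomal protein genes 5 were lower and 1 higher, Mrps16 at -0.92 ± 0.17 and Mrpl43 at -0.90 ± 0.16 among the lower ones, and Mrpl32 at 0.82 ± 0.15, which was at -0.15 with centring on all spots. In the respiratory chain and ATP synthase 14 of 64 genes were higher (21.9%) and 15 lower (23.4%), so that the higher share was near that of all tested genes. Cox7a2 (1.35 ± 0.18), a subunit of the terminal oxidase, was higher and Atp5c1 (-1.14 ± 0.18), of the ATP synthase, lower. Cox6a1 (1.07 ± 0.16) and Ndufa1 (1.002 ± 0.16) were higher, and at -0.44 and -0.39 with centring on all spots. The second probe of Ndufa1 gave 0.51.

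Of 15 neutrophil genes 6 were lower (40%, against 13.4% of all tested genes) and none higher, with a median of -0.40 under loess, -0.44 with centring on the tested genes and -0.13 with the deposited ratio. Retnlg, a resistin-like secreted protein of neutrophils, went from 3.35, 3.16 and 2.71 to 1.96, 2.13 and 1.71, a difference of -1.14 ± 0.16 without overlap. Pglyrp1, a peptidoglycan-binding granule protein, differed by -1.43 ± 0.21. Both were called in 4 scalings, and the day 0 ratios of Pglyrp1 (2.56, 2.71 and 1.65) were lowest on slide 3. Cxcr2, the receptor for neutrophil-attracting chemokines, was -0.74 ± 0.16, but -0.05 with the deposited ratio. The abundant neutrophil genes S100a8 and S100a9 were not called, at 0.12 ± 0.18 and -0.13 ± 0.20. No primary granule gene could be tested, because none was well above background on all 3 arrays of either day. Mpo and Elane were so on no day 10 array. Of 12 monocyte genes 2 were lower (16.7%, near the share of all tested genes), Ly6c1 (-1.39 ± 0.27) and the protease gene Ctss (-1.02 ± 0.30), while Csf1r (-0.04 ± 0.16) and Fcgr3 (0.29 ± 0.15) were not called. Of these 2 lower genes Ly6c1 was called in 4 scalings. Of 6 genes linked to suppressive myeloid cells 2 were lower (33.3%, against 13.4% of all tested genes), Cebpb (-0.64 ± 0.17) among them. Arg1 and Nos2 were well above background on no day 10 array, and neither was so on all 3 day 0 arrays.

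Some of the largest falls went with the slide. Tspan1, a tetraspanin gene, had day 0 ratios of 2.68 and 4.04 in mice 832 and 833 on slide 2 and 0.90 in mouse 834 on slide 3, and day 10 ratios of 0.31, 0.69 and 0.80. The call of -1.94 ± 0.46 (limma adjusted p = 0.01143) thus came from mice 832 and 833, and mouse 834 differed by -0.10. A second Tspan1 probe gave -0.94. Asprv1, an aspartic protease gene, showed the same pattern, with -2.42, -3.40 and -0.04, and Emp1, a membrane protein gene, with -2.403, -3.00 and -0.73. The part of the slide in these 3 falls was not tested. The stefin genes Csta1 and Cstdc6, inhibitors of cysteine proteases and close copies of each other, fell in every mouse. Csta1 went from 4.45, 5.71 and 4.12 to 2.42, 2.28 and 2.82 (-2.25 ± 0.32), and in mouse 834 alone it differed by -1.2996. Of the skin and stroma list 1 of 11 genes could be tested, the keratin gene Krt5, with differences of 0.92, -0.63 and 0.25.

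T and NK cell genes gave few values. Of 23 T cell genes 2 were tested and 9 were never well above background, Cd4, Cd8a and Cd28 among them. On all 3 day 0 arrays 8 were well above background, and on all 3 day 10 arrays 2. The 2 tested genes are thus those that stayed bright. Cd3e, a chain of the T cell receptor complex, was 0.54 ± 0.16 higher and was called in 4 scalings, and Thy1, a surface protein of T cells, 0.85 ± 0.20. Under centring on all spots they were at -0.26 and -0.12. Of 7 NK and cytotoxic genes 1 was lower (14.3%, near the 13.4% of all tested genes), the granzyme gene Gzma. It went from 1.72, 2.57 and 2.02 to 0.99, 1.81 and 0.35, so that the days overlapped, with a paired difference of -1.05 ± 0.21. Klrd1 (-0.44 ± 0.18), Tbx21 (-0.38 ± 0.17) and Nkg7 (-0.28 ± 0.19) were not called.

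Interferon-stimulated genes moved in both directions. Of 19 tested 7 were higher (36.8%, against 23% of all tested genes) and 1 was lower. The list median was -0.08 under loess and -0.63 with centring on all spots. Isg15, a ubiquitin-like modifier, went from -3.44, -3.31 and -3.05 to -1.86, -1.44 and -1.19, which left it below the reference but 1.77 ± 0.16 higher than at day 0, without overlap (limma adjusted p = 0.0001685). Rsad2, the antiviral enzyme viperin, went from -0.79, -1.35 and -0.31 to 0.81, 1.15 and 1.58, a difference of 1.998 ± 0.19, with another probe at 1.20. Irf7, a factor that drives interferon genes, rose by 0.94 ± 0.16. These 3 and Ifit1 (0.77) were called in 4 scalings. Ifi27l2a had the opposite course, from 2.51, 3.33 and 1.87 to 1.25, 1.85 and 0.86 (-1.25 ± 0.16), also in 4 scalings, with -0.60 at its second probe. Irf7 was at -0.17 with centring on all spots.

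The letters GAAA, any 2 bases and GAAA again, the core of the element that interferon-activated factors bind, were found on either strand before the start in 4 of the 7 higher genes (57.1%), against 3.46% of 27025 genes. Members of the list that were not higher were not searched, so the share cannot set the higher genes apart from the rest of the list. The windows of the genes with the largest rises are shown, and the match of Rsad2 lies on the strand opposite to the gene. Of 3 matches before Isg15 the one nearest the start is in capitals, and no other searched motif overlaps those shown.
Isg15, minus strand, chr4:156200845-156200914: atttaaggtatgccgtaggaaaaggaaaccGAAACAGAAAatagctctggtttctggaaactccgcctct
Rsad2, minus strand, chr12:26456533-26456602: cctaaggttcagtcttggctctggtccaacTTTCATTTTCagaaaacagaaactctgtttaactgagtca

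Among the immediate-early, histone, chaperone and glycolytic genes 16.7%, 19.2%, 15.4% and 33.3% were lower, against 13.4% of all tested genes. The immediate-early and chaperone shares were near that of all tested genes. Of 12 immediate-early genes 2 were lower, Klf4 (-1.24 ± 0.21) and Nr4a1 (-0.85 ± 0.17), and both were called in 4 scalings. Fosb was at 0.49 ± 0.18 and Btg2 at -0.43 ± 0.18 (0.05 at its second probe), neither of them called. Of 26 histone genes 8 were higher (30.8%, against 23% of all tested genes) and 5 lower. H2bc4, of the histone H2B family, rose from 0.27, 0.07 and 0.23 to 1.72, 1.295 and 1.68 (1.38 ± 0.16, and -0.04 with centring on all spots), while H3f3b, a replacement histone, fell from 1.20, 2.29 and 0.53 to -0.23, -0.22 and -0.59 (-1.69 ± 0.24). Of 13 chaperone genes 2 were lower, the chaperonin subunits Cct5 (-0.95 ± 0.16) and Cct2 (-0.88 ± 0.16), and their partner Cct7 was higher (0.60 ± 0.15, and -0.40 with centring on all spots). Of 9 glycolytic genes 3 were lower, Gpi1 (-0.81 ± 0.18), Slc2a1 (-0.69 ± 0.16) and Pgam1 (-0.64 ± 0.16). Among adhesion genes Itgb7 was lower (-0.63 ± 0.16), while Cd44 was higher (0.62 ± 0.17, 0.21 at its second probe, and -0.40 with centring on all spots).

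Of 7 cytokine, chemokine and receptor genes 1 was higher and 1 lower (14.3% each, against 23% higher and 13.4% lower of all tested genes). Csf1, the growth factor of macrophages, had ratios of 0.87, -0.34 and 0.65 at day 0 and 1.35, 1.22 and 1.71 at day 10, a difference of 1.03 ± 0.21 (limma adjusted p = 0.005315, and -0.12 with centring on all spots). The chemokine gene Ccl6 was lower, at -0.88 ± 0.16. Il1b, at -0.03 ± 0.24, was not called, and Il6, Ccl2, Csf3 and Vegfa were well above background on none of the 6 arrays. The chemokine gene Ccl4 was well above background on the 3 day 0 arrays alone, where its Cy5 signal was at least 1.68-fold higher.

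Few markers of the inoculated cells could be measured. Of 21 hepatoma and liver genes 12 were never well above background, Alb, Gpc3 and Igf2 among them. Afp, alpha-fetoprotein, was well above background on 2 day 0 arrays and 1 day 10 array. Of the 3 genes that could be tested Ahsg, a liver plasma protein, was higher by 0.60 ± 0.18 with overlapping days (limma adjusted p = 0.03222, and -0.29 with centring on all spots), and Ambp (0.44 ± 0.17) and Apoe (0.11 ± 0.18) were not called.

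Loss of signal at day 10 further limited what could be measured. On the day 0 arrays, 1246 genes had a value with a probe well above background on all 3 and none on any day 10 array, and no gene showed the reverse. Of all genes well above background on the 3 day 0 arrays, 16.1% were so on no day 10 array. The share was 22.6% for the mitochondrial ribosome (12 of 53 genes), 12.2% for the translation factors (6 of 49), 6.49% for the respiratory chain (5 of 77) and 2.47% for the cytosolic ribosome (2 of 81). Each bound is the day 0 signal over a day 10 value. On each day 10 array that value is the higher of the probe's own signal and the lowest signal of a probe well above background. For 217 of the 1246 the day 10 value was not below the day 0 signal, so no bound could be given and no fall in signal is shown. The other 1029 had bounds from at least 1.0001-fold to at least 3.76-fold. Bounds come from single-channel signals after loess and quantile scaling of intensity, which are open to dye bias. The day 10 arrays were also dimmer in Cy5 as a whole, and the part of overall signal in these losses was not tested.

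**Figure D4:**
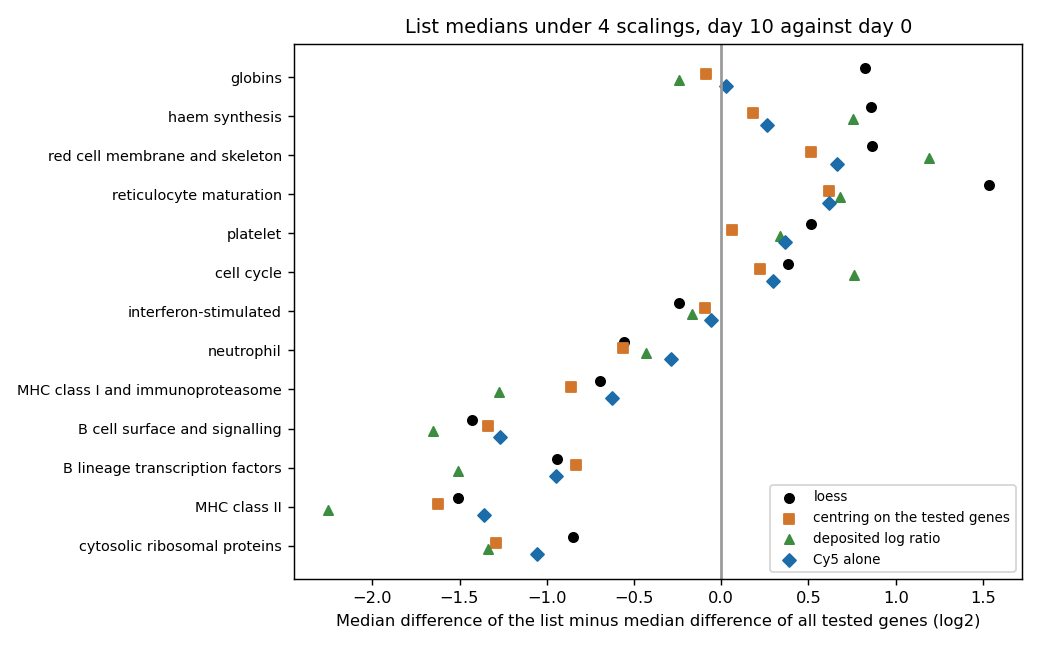
Median difference (day 10 minus day 0, log2) of 13 gene lists minus the median of all tested genes, under 4 scalings, one marker each. Globins lie at 0.83 with loess and between -0.24 and 0.03 in the other scalings, the membrane and reticulocyte lists lie above 0 in all 4, and the B cell, MHC and ribosomal protein lists lie below 0 in all 4.

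Relative to the median of all tested genes, the membrane and skeleton list stood at 0.86 with loess, 0.51 with centring on the tested genes, 1.19 with the deposited ratio and 0.66 with Cy5 alone. The reticulocyte list stood at 1.54, 0.62, 0.68 and 0.62 in the same order. The platelet list lay at 0.51, 0.06, 0.34 and 0.36, and the globins at 0.83, -0.09, -0.24 and 0.03. MHC class II lay between -2.26 and -1.36, the B cell surface list between -1.65 and -1.27, and the cytosolic ribosomal proteins between -1.34 and -0.85.

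The array design gives each probe a place on build mm8. The probe of Slc4a1 lies at chr11:102165032-102165091, that of Cd79b at chr11:106127556-106127615 and that of Ms4a1 at chr19:11317922-11317981. The files place the probe named for Isg15 at chr17:45870420-45870479, while RefSeq has the Isg15 promoter on chromosome 4, so that probe's assignment rests on its accession.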

How the data were processed

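RNA of 6 blood samples was measured on 2-colour Agilent arrays. The authors deposited scanner tables with spot and background intensity in each channel and, for every spot, a log10 ratio (Cy5 against Cy3), made with Agilent Feature Extraction 10.5.1.1 per the file headers (9.1.3.1 per the submitters' processing notes). The deposited value table of the series held the same log10 ratios. Arrays have no read depth, and their number limits the precision.

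Spot intensities were corrected by normexp (offset 50), leaving aside spots with non-uniform background. Ratios were normalized by loess within arrays, with control and outlier spots at weight 0, using limma 3.58.1 in R 4.3.3. Of 41174 probes 5043 were kept, which were flagged as well above background in Cy5 and had a value on each of the 6 arrays. The brightest probe stood for a gene, and 131 of 559 genes with several kept probes had probes of opposite sign. Of 4407 genes bright on all 6 arrays, 28 lacked a value on some array and were not tested. Probes were named through RefSeq accessions (23374), symbols (6733) or synonyms (2919) of GRCm38.p6, and 8148 kept the file's name.

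The model held day and mouse (lmFit and eBayes, 2 residual degrees of freedom), with Benjamini-Hochberg adjustment at 0.05. The mouse numbers pair the samples, which come from the same animals. Deviations from the day means correlated at 0.23, 0.46 and 0.29 within mice 832, 833 and 834. The code was tested on simulated data.

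The rule for named genes takes, among genes with a symbol (no accession, RIKEN clone or Gm or LOC number), the 15 largest called differences each way with 1 direction in all mice, and up to 4 genes of each of 36 lists by smallest p, and up to 3 of each list that were not measured on both days, by Cy5 signal. Members and lists were chosen with earlier results of these data known. Genes named beyond the rule, among them those with promoter windows, were chosen after their values were seen. Some genes that the rule picks are not reported here. Centring on the tested genes was added after seeing the data.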

Additional observations from a re-analysis of the deposited data

How the results depend on the processing

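The count of 1594 called genes was recomputed with 1 choice changed at a time. It was 788 with no replicate block, 117 with all 9 arrays and a replicate block, 581 with slide and replicate block, 0 with the slide as a block without the mouse (smallest limma adjusted p 0.121, and 783 genes at an unadjusted p below 0.05) and 707 with Cy5 alone. Leaving out 1 mouse gave 524 to 1750. Under the other alternatives it lay between 1357 (normexp on all spots) and 2130 (deposited log ratio), but with median centring over all spots 3 were higher and 1893 lower, and of those called in both 18 had the opposite direction. The cause was not tested.

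With median centring the following named genes changed sign: Hbb-bt -0.63, Hbb-y -0.62, Hbb-bh1 -0.50, Slc25a37 -0.35, Lmo2 -0.21, Nfe2 -0.42, Ftl1 -0.15, Slc48a1 -0.0833, Bpgm -0.0765, Car2 -0.0469, Ppbp -0.21, Vwf -0.0614, Gp1bb -0.18, Thy1 -0.12, Cd3e -0.26, Irf7 -0.17, Cd44 -0.40, Csf1 -0.12, Ccnb2 -0.12, Cct7 -0.40, Ahsg -0.29, Mrpl32 -0.15, Eef1d -0.15, Eif5 -0.14, Cox6a1 -0.44, Ndufa1 -0.39, Psmd4 -0.31 and H2bc4 -0.0413. With the deposited ratio Hbb-bt (-0.73) and Slc25a37 (-0.0725) did, and with Cy5 alone Hbb-y (-0.0062). These lists hold only reported genes that the rule picks and that were called under loess. Some other named genes changed sign too, Alas2 among them with the deposited ratio and with Cy5 alone. Dim Cy5 signal at day 10 limits the genes that could be tested to 4379 of 27573 on the array.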
